A study of Mus musculus with 6 samples.

Results

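Ptgds, Il33, Hapln2, Anln, Apod, Klk6, Enpp6 and Anxa5 are genes used to sort mature oligodendrocytes of the mouse brain into subtypes. These 8 genes, of 24841 in the table, were chosen by name. They were read in the oligodendrocyte nuclei, taken as nuclei in which the values of the oligodendrocyte genes Mog, Mag, Ermn and Aspa summed to 4 or more. That gate held 9569 of 48834 nuclei (19.6%), and the other 39265 nuclei are called the rest. The nuclei came from the striatum, frozen before isolation, of wild-type animals (3 libraries) and Celsr3 heterozygotes (3 libraries), with 1 library for each labelled biological replicate. Celsr3 encodes an adhesion receptor of the cadherin superfamily. The labels name neither the Celsr3 allele nor the strain, sex or age of the mice, and they do not say how the mice of the groups were related. Values are depth-corrected UMI values (unique molecules per gene and nucleus, brought to a common depth and rounded), and a level below is the mean value per nucleus.

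Oligodendrocytes wrap axons in myelin. In published mouse atlases the mature cells form a continuum of types, of which some are rich in Ptgds and Il33 and others in Hapln2 and Klk6. Ptgds encodes lipocalin-type prostaglandin D synthase, a secreted enzyme that also carries lipids, and Apod encodes another secreted lipid carrier of the lipocalin family. Il33 encodes a nuclear alarmin cytokine that is released when cells are damaged. Hapln2 encodes a link protein of the extracellular matrix at nodes of Ranvier. Anln encodes anillin, which in dividing cells scaffolds the contractile ring and in myelin sits with the septin filaments. Klk6 encodes a secreted serine protease, and Enpp6 a choline-specific phosphodiesterase known as a marker of newly forming oligodendrocytes. Anxa5 encodes annexin A5, a calcium-dependent phospholipid-binding protein.

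The 250 bases before the RefSeq start (assembly GRCm38.p6) are shown for 5 members, namely Ptgds and Hapln2, which define the oligodendrocyte states described below, and Il33, Klk6 and Enpp6, the tested members that differed most between them. Each sequence runs 5′ to 3′ on the gene's strand, and capitals mark matches, on either strand, to 3 motifs of oligodendrocyte factors. The motifs are the E-box CAGCTG, the SOX words ACAAAG and ACAATG, and the MYRF words CTGGCAC and CTGGTAC. None of these motifs overlaps another in the windows shown.
Ptgds chr2:25469750-25469999: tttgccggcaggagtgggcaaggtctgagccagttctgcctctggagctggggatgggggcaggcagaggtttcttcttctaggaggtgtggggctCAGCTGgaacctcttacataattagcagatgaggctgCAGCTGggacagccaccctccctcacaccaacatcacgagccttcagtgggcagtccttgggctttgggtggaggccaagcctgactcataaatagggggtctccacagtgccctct
Il33 chr19:29924863-29925112: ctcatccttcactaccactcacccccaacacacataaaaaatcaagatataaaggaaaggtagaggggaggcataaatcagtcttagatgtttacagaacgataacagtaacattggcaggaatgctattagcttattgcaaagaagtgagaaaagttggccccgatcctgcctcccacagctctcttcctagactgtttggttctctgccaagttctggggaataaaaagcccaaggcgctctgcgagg
Hapln2 chr3:88027512-88027761: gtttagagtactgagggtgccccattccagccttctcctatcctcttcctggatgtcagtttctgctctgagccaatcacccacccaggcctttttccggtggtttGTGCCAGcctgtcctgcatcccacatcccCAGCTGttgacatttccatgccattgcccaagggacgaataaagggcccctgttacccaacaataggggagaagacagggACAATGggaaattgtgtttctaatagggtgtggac
Klk6 chr7:43824294-43824543: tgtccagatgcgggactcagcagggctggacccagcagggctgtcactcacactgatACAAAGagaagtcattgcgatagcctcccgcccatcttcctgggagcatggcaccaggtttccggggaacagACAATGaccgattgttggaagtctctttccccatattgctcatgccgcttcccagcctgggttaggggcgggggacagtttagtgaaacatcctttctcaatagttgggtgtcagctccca
Enpp6 chr8:46986637-46986886: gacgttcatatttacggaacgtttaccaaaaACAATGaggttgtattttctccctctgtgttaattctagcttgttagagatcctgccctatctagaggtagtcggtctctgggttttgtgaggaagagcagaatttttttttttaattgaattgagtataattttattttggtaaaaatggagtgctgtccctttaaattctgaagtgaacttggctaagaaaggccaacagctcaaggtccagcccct

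All 8 members matched the RefSeq table, with 10 start windows between them. The E-box occurred in 13% of 32851 windows of this length and in 2 of the members' 10, which are those of Ptgds and Hapln2. A SOX word occurred in 25.2% of all windows and in 4 of the 10, those of Hapln2, Apod, Enpp6 and 1 of 2 for Klk6. A MYRF word occurred in 5.93% of all windows and in that of Hapln2, 144 bases before the start. A match is a description of letters, not of binding. In the GENCODE annotation of GRCm38, Ptgds lies on chromosome 2 (25466709 to 25470046, minus strand), so its window falls inside a longer annotated gene model. Il33 lies on chromosome 19 (29925114 to 29960718, plus), Hapln2 on chromosome 3 (88021750 to 88027583, minus) and Klk6 on chromosome 7 (43824499 to 43832030, plus). The windows shown for Hapln2 and Klk6 also run in part into their annotated genes, and the SOX match of Hapln2 lies in that part. Anln lies on chromosome 9 (22332012 to 22389188, minus), Apod on chromosome 16 (31296192 to 31314808, minus) and Anxa5 on chromosome 3 (36448923 to 36475894, minus). Anln is overlapped on its own strand by Gm48646, which is in the table and whose reads may not have been told apart from its own. Anxa5 is overlapped by the microRNA gene Mir7009, which is not in the table. Enpp6 lies on chromosome 8 (46986887 to 47096762, plus) and is overlapped by the antisense genes Gm45600 and 4930579M01Rik, both in the table. Whether reads were counted by strand is not given in the sources used here, so their reads and those of Enpp6 may not have been told apart, and the values of Enpp6 are uncertain to that extent.

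The libraries held 7735 to 8875 nuclei and 1067 to 2091 gated nuclei each. The median number of genes detected was 1807 to 2078 in gated nuclei and 3039 to 3271 in the rest. Celsr3 averaged 0.0747, 0.10 and 0.108 over all nuclei of the wild-type libraries (replicates 1 to 3). It averaged 0.0617, 0.0692 and 0.0643 in the heterozygous ones, so the groups did not overlap. In gated nuclei alone Celsr3 was lower and the groups overlapped, at 0.00956, 0.0105 and 0.0197 against 0.0122, 0.0115 and 0.0141. Of the barcodes, 273 occurred in 2 libraries and 1 in 3, and 6 barcodes were shared between gated nuclei. Libraries stood apart in 2 respects. Heterozygous replicate 1 held 65 fibroblast-like nuclei against 7 to 18 in the others, and in its gated nuclei 8 fibroblast markers summed to 0.313 against 0.0440 to 0.111. Choroid plexus markers summed to 2.01 to 2.64 in gated nuclei of wild-type replicates 1 and 2 and heterozygous replicate 3, and to 0.101 to 0.209 in the other 3 libraries. In 1142 gated nuclei (9.20% to 14.6% by library) the marker sum of another class also passed its limit.

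The gate selected nuclei with oligodendrocyte markers that it had not used. Mobp averaged 7.19 in gated nuclei and 1.25 in the rest, and Opalin 1.60 and 0.0810. At the limit of the gate, the 418 nuclei with a sum of 4 averaged 3.56 for Ptgds and 0.110 for Hapln2, and the 665 nuclei with a sum of 3 averaged 3.08 and 0.0541.

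Of the 8 members, 7 were higher in gated nuclei than in the rest in all 6 libraries, and Anxa5 was lower in all 6. In this fit 15% of 13856 genes were called higher in gated nuclei and 74.6% lower, at an adjusted p under 0.05 (limma, library as a block, Benjamini-Hochberg over all genes tested). The median log2 difference of all genes was -0.60. Gated nuclei held fewer detected genes than the rest. Scaling each summed profile by median-ratio size factors moved the median difference to 0.07 and the called shares to 44.7% higher and 38.4% lower.

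Ptgds, the prostaglandin D synthase, ranged over the libraries from 5.31 through a median of 7.10 to 9.88 in gated nuclei and from 0.641 through 1.24 to 1.67 in the rest. The log2 difference was 2.65 ± 0.10 (SE), with an adjusted p of 1.79e-10. Apod, its relative among the lipocalins, ranged from 2.69 through 3.25 to 4.60 and from 0.309 through 0.337 to 0.569. It was higher by 3.13 ± 0.05 on the log2 scale (limma adjusted p = 6.24e-13). For both lipocalins every gated value lay above every value of the rest.

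Il33, the alarmin, ranged from 0.206 through 0.434 to 0.854 in gated nuclei and from 0.0536 through 0.0757 to 0.0877 in the rest, a log2 difference of 2.41 ± 0.18 (limma adjusted p = 6.78e-08). No member varied more between libraries in gated nuclei, relative to its mean, than Il33 at 0.477 ± 0.230 (SD, n = 6). It was detected in 11.6% of the gated nuclei of wild-type replicate 3 and in 35.7% of those of heterozygous replicate 2.

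Hapln2, the nodal link protein, was the most restricted member. It averaged 0.932 ± 0.128 in gated nuclei and 0.0211 ± 0.00554 in the rest (SD, n = 6), and 91.6% of its summed value lay in the gated nuclei. The log2 difference was 4.93 ± 0.09 (limma adjusted p = 1.50e-12). Anln was close behind, at 1.62 ± 0.191 and 0.0463 ± 0.0168, with 89.7% of its summed value in gated nuclei and a difference of 4.90 ± 0.10 (limma adjusted p = 2.18e-12). The shares for Ptgds and Il33 were 60.9% and 61.2%.

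Enpp6, the choline phosphodiesterase, averaged 0.875 ± 0.156 against 0.0694 ± 0.0246, a difference of 3.53 ± 0.12 (limma adjusted p = 8.07e-11). Klk6, the protease, was detected in few nuclei, 4.73% ± 1.02 of the gated ones and 0.881% ± 0.273 of the rest. Its level was 0.0738 ± 0.0213 against 0.00978 ± 0.00308, higher by 2.06 ± 0.09 on the log2 scale (limma adjusted p = 9.46e-10). The 0.01 added before the logarithm is as large as its level in the rest, so this scale understates its difference.

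Anxa5, the annexin, went the other way, at 0.0511 ± 0.0120 in gated nuclei and 0.0879 ± 0.0152 in the rest. The log2 difference was -0.69 ± 0.07 (limma adjusted p = 1.45e-06), close to the median of all genes. With size-factor scaling it was -0.04, with a limma adjusted p of 0.551, the highest over 12 alternatives (the lowest was 3.19e-07). Its call therefore depended on the scaling, whereas the other 7 members stayed higher under it, by 2.55 to 5.56.

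**Figure D1:**
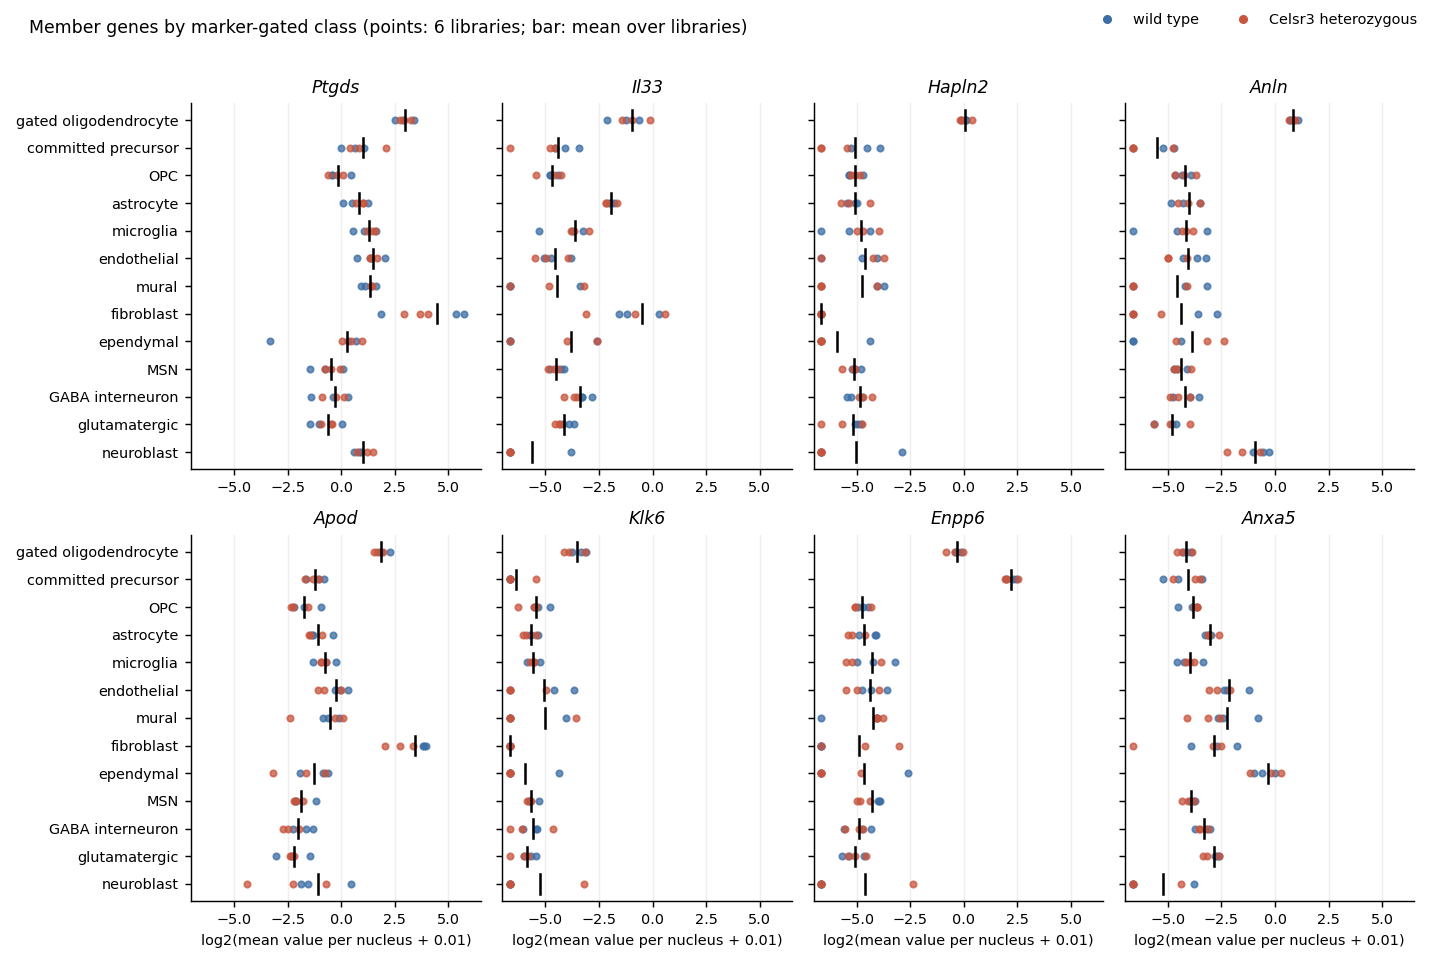
Level of each member in 13 classes of nuclei gated by summed markers, as log2(mean value per nucleus + 0.01). Points are the 6 libraries (blue wild type, red Celsr3 heterozygous) and bars the mean over libraries; Hapln2 stands apart in oligodendrocytes and Enpp6 in committed precursors, and Anxa5 has its highest mean in ependymal-like nuclei.

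Levels were next set out over 13 classes of nuclei, each defined by its own markers and named by them, with gated oligodendrocytes limited to the 8427 nuclei without markers of another class. These levels are descriptions. Choroid plexus-like and macrophage-like nuclei were left out, because some libraries held under 5 of them. The plot of levels by class shows that only Hapln2, Anln and Klk6 had their highest mean in oligodendrocytes among the 13 classes. Hapln2 averaged 1.02 ± 0.157 there and at most 0.0309 ± 0.0269 in any other class (endothelial-like), and the library ranges did not overlap. Below that, neighbours in the order overlapped, and in fibroblast-like nuclei Hapln2 was at 0 in all 6 libraries. Klk6 averaged 0.0778 ± 0.0245 and then 0.0205 ± 0.0326 in mural-like nuclei, with overlapping ranges.

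Anln had a second population. After oligodendrocytes (1.76 ± 0.211), it averaged 0.514 ± 0.225 in 93 nuclei that passed the neuroblast markers. That class was led by cell-division genes such as Top2a, Aspm and Cenpf, and Anln itself is a cytokinesis gene. The ranges of these classes overlapped neither each other nor the next class, ependymal-like nuclei at 0.0590 ± 0.0714.

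Ptgds and Apod were highest in fibroblast-like nuclei. Apod ranged there from 4.06 to 15.6 and was above the oligodendrocyte value of the same library in 6 of 6 libraries, though the ranges overlapped. Ptgds ranged from 3.64 in wild-type replicate 2 to 52.2 in wild-type replicate 3, above oligodendrocytes in 5 of 6. These are means over 7 to 65 nuclei per library. Oligodendrocytes came next, at 7.89 ± 1.83 for Ptgds and 3.63 ± 0.716 for Apod, and lay above the third class, endothelial-like nuclei (2.77 ± 0.830 and 0.834 ± 0.284), with no overlap.

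Ptgds was also read in every other class. It was detected in 44.0% ± 11.9 of MSN-like nuclei (medium spiny neurons, median 3311 genes) and in 86.8% ± 4.24 of these oligodendrocyte nuclei (median 1882 genes). Outside oligodendrocytes, mean detection ran from 37.1% ± 9.16 in glutamatergic neuron-like nuclei to 81.7% ± 12.2 in mural-like nuclei. It was 74.3% ± 8.48 in microglia-like nuclei, whose median of 1877 genes was close to that of oligodendrocytes. The MSN-like level ranged from 0.359 to 1.04 by library. Apod was detected in 21.5% ± 6.29 of MSN-like nuclei, and the other 6 members in 0.931% to 5.27%. Because Ptgds was read in so many of these neurons, the states below were also drawn with a higher limit for it.

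Il33 averaged 0.690 ± 0.545 in fibroblast-like nuclei, 0.505 ± 0.238 in oligodendrocytes and 0.248 ± 0.0379 in astrocyte-like nuclei, and these neighbours overlapped. Astrocytes did not overlap the next class, GABAergic interneuron-like nuclei at 0.0852 ± 0.0280. Enpp6 was highest in committed oligodendrocyte precursor-like nuclei, at 4.65 ± 0.866 against 0.780 ± 0.141 in oligodendrocytes and 0.0438 ± 0.0220 in mural-like nuclei, without overlap at either step. Anxa5 had its highest mean in ependymal-like nuclei (0.774 ± 0.300), which did not overlap the endothelial-like ones (0.213 ± 0.111) but did overlap the mural-like ones (0.200 ± 0.185, with a highest library at 0.565). In oligodendrocytes it stood at rank 12 of 13 (0.0456 ± 0.0101).

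Across the 13 class means of log2(level + 0.01), the gene most like Ptgds among 13848 was Apod (Pearson r = 0.98), and Neat1 (0.86) was also among its 3 nearest. Those of Apod included Ptgds and Dock5 (0.88). Hapln2 was most like S1pr5 (0.98), Opalin (0.97) and Vmp1 (0.96), and Klk6 most like Hapln2 (0.91), Ttll7 (0.90) and S1pr5 (0.90). Il33 was nearest to Dock5 (0.86), Slc5a11 (0.85) and Tsc22d3 (0.83), and Anln to Trim59 (0.95), Tnfaip6 (0.94) and Gm12145 (0.93). Anxa5 was nearest to Pink1 (0.92), Znrd1as (0.91) and Nudt14 (0.91). The nearest genes of Enpp6 were the antisense Gm45600 (0.98) and 4930579M01Rik (0.97) that overlap it, and then Plxnb3 (0.94). The class means come from the same libraries, so these correlations are descriptions over 13 points.

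Within the gated nuclei the members were detected together in 2 blocks. For each pair and library, the odds ratio of finding both genes in a nucleus was taken over 4 strata of genes detected, and nuclei were not treated as replicates. Of 28 pairs, 13 had a ratio above 1 in all 6 libraries and 9 a ratio below 1 in all 6. These counts cover member pairs only, and no share over pairs of other genes was computed to set beside them. One block was Ptgds with Il33, whose ratio ranged from 2.95 through a median of 3.76 to 6.97. Il33 was found in 24.7% ± 9.01 of nuclei with Ptgds and in 7.74% ± 3.87 of nuclei without it (SD, n = 6).

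Hapln2, Anln, Apod, Klk6 and Enpp6 formed the other block. All 10 pairs among these 5 genes had ratios above 1 in every library. The median ratios were highest for Klk6 with Enpp6 (7.27), Anln with Klk6 (6.10) and Apod with Klk6 (5.83), and lowest for Apod with Enpp6 (2.44). Hapln2 with Anln gave 2.44 to 5.71, with a median of 3.93. Anln was found in 70.6% ± 4.69 of nuclei with Hapln2 and in 38.6% ± 5.16 of those without it.

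Genes of different blocks were found together less often than independent detection within strata would give. Ptgds had a median ratio of 0.53 with Hapln2, 0.47 with Anln, 0.37 with Klk6 and 0.29 with Enpp6, below 1 in all 6 libraries each. Il33 had 0.77 with Hapln2, 0.78 with Anln, 0.26 with Klk6 and 0.38 with Enpp6, also below 1 in all 6. Apod had 0.85 with Ptgds (below 1 in 5 libraries) and 1.04 with Il33 (above 1 in 5). Without the nuclei that carry another class's markers, both of these ratios were below 1 in 6 of 6 libraries, with medians of 0.58 and 0.87. Anxa5 was above 1 in every library with Klk6 (2.47) and Hapln2 (1.50). With Ptgds it was below 1 in every library (0.70), but in 4 or 5 of 6 under 3 of 4 alternatives.

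**Figure D2:**
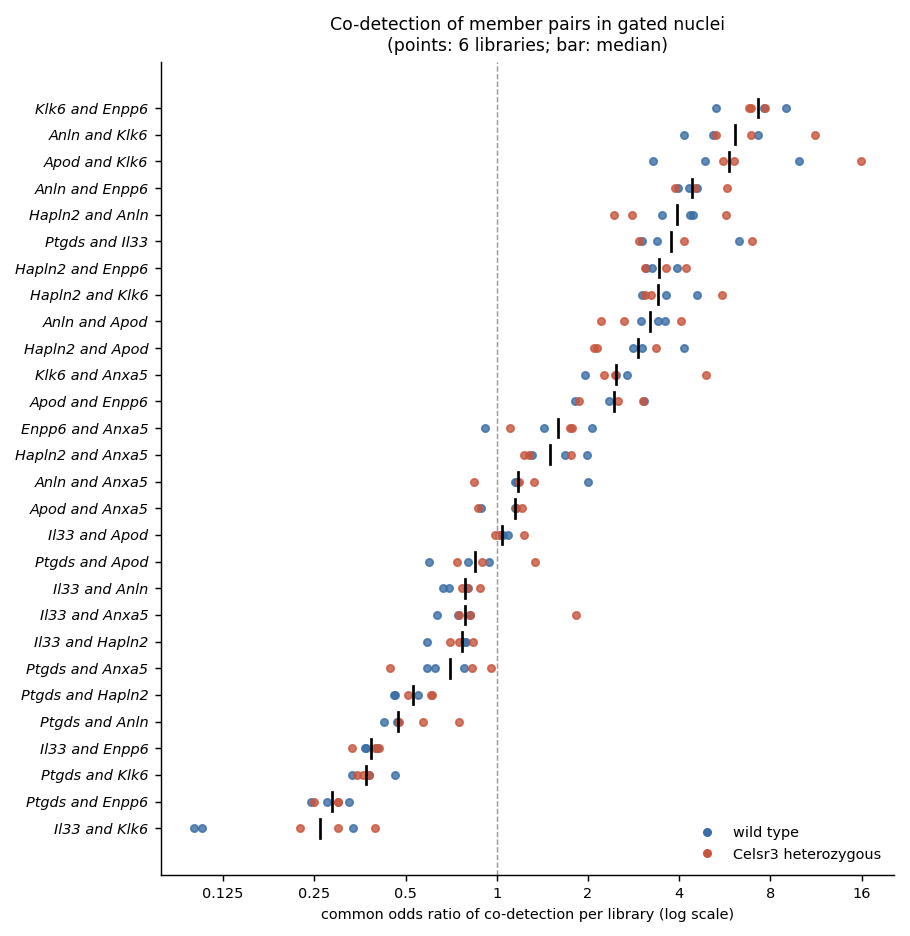
Common odds ratio of co-detection for the 28 member pairs in gated nuclei, on a log2-spaced axis; points are the 6 libraries (blue wild type, red Celsr3 heterozygous), bars the medians and the dashed line a ratio of 1. Pairs of Hapln2, Anln, Apod, Klk6 and Enpp6 and the pair Ptgds and Il33 lie above 1, and Ptgds or Il33 with Klk6 or Enpp6 lie lowest.

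The relation was graded. Binned by the Ptgds value of the nucleus, Il33 averaged 0.132 ± 0.0776 at 0, 0.360 ± 0.172 at 3 to 5 and 0.936 ± 0.362 at 21 or more, 7.07-fold higher at the top and rising between these ends in 6 of 6 libraries. Enpp6 went from 1.83 ± 0.261 through 0.969 ± 0.208 to 0.128 ± 0.0855, 14.3-fold higher at 0 than at the top in the ratio of means. Klk6 went from 0.167 to 0.0161, Anln from 2.63 to 0.721 and Hapln2 from 1.45 to 0.479, each lower at the top in 6 of 6 libraries. Apod moved little, from 4.45 ± 1.11 to 3.57 ± 0.585, with the top lower in 4 of 6 libraries. The top bin held as few as 28 nuclei in a library.

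Binned by Hapln2 instead, Klk6 averaged 0.0303 ± 0.0131 at 0 and 0.273 at 4 or more, and Ptgds 8.36 ± 1.91 and 3.66. Anln rose from 0.990 to 3.49, Apod from 2.53 to 5.72 and Enpp6 from 0.616 to 1.87, in 6 of 6 libraries each. Il33 was 2.95-fold higher at 0. The mean Ptgds level of the nuclei richest in Hapln2 was above the 0.641 to 1.67 of the rest. It lay within the library range of endothelial-like nuclei, which averaged 2.77 and reached 4.15. Microglia-like nuclei averaged 2.43 and reached 3.11. How much of this Ptgds came from the oligodendrocytes themselves was not tested.

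**Figure D3:**
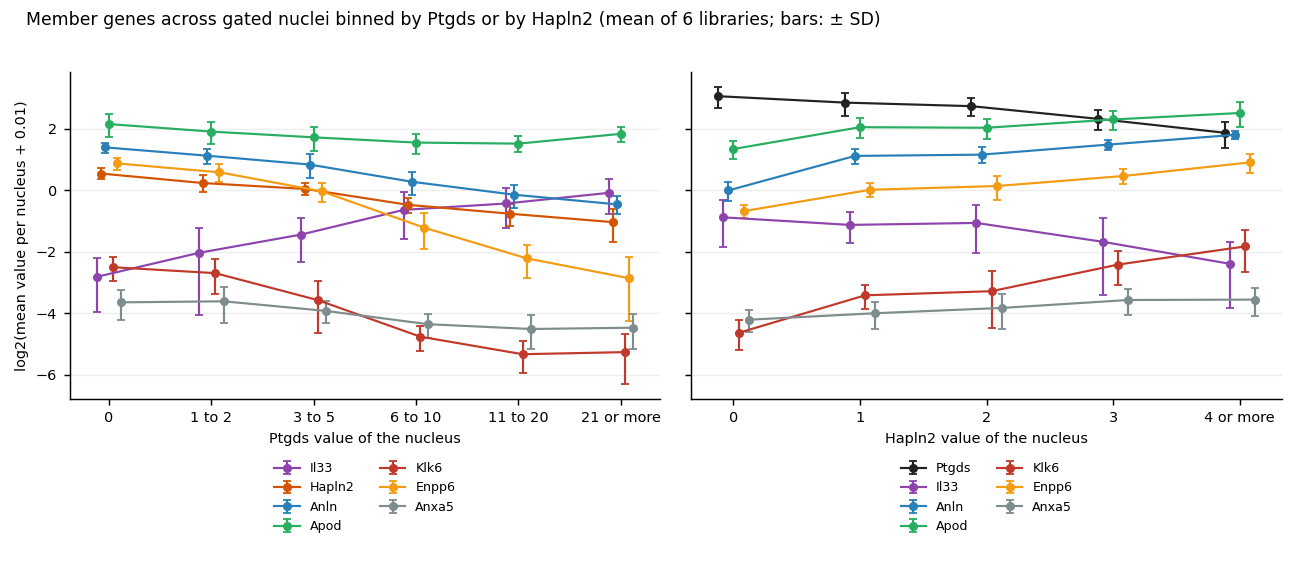
Level of the other 7 members, as log2(mean value per nucleus + 0.01), in gated nuclei binned by their Ptgds value (left) or Hapln2 value (right); points are means of the 6 libraries and bars ± SD. Il33 climbs with Ptgds while Enpp6, Klk6, Anln and Hapln2 decline, and the right panel shows the converse.

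For the comparison of states, a Ptgds-type nucleus was a gated one with Ptgds at 1 or more and Hapln2 at 0, and a Hapln2-type nucleus the converse. The first state held 5004 nuclei (52.3% of gated), the second 755 (7.89%), 3201 nuclei (33.5%) had both genes and 609 (6.36%) neither. By library there were 590 to 1190 Ptgds-type and 63 to 179 Hapln2-type nuclei. Median genes detected were 1874 and 1962. Ptgds and Hapln2 define the states and were left out of the test, which compared the 2 states within libraries over 10977 genes.

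Of the 6 members tested, Anln, Apod, Klk6 and Enpp6 were higher in Hapln2-type nuclei, Il33 was lower, and Anxa5 did not pass. In this fit 6.19% of genes were called higher and 10.4% lower in Hapln2-type nuclei (limma adjusted p under 0.05), 16.6% in all, with a median over all genes of -0.09. The same sign in 6 of 6 libraries was found in 7.28% (higher) and 11.3% (lower) of genes. By size of rise among 10977 genes, Klk6 ranked 2, Enpp6 13, Anln 16 and Apod 86, and Il33 ranked 12 by size of fall.

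Il33 ranged from 0.251 through 0.512 to 1.03 in Ptgds-type nuclei and from 0.0313 through 0.0850 to 0.126 in Hapln2-type nuclei, with no overlap. The log2 difference was -2.72 ± 0.16 (SE), lower in 6 of 6 libraries, with a limma adjusted p of 2.50e-11.

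Klk6 ranged from 0.0159 through 0.0212 to 0.0513 in Ptgds-type nuclei and from 0.135 through 0.218 to 0.342 in Hapln2-type nuclei, a difference of 2.82 ± 0.22 (limma adjusted p = 2.99e-09). The protease was detected in 13.8% ± 4.36 of Hapln2-type and 1.89% ± 0.667 of Ptgds-type nuclei. Enpp6 ranged from 0.414 through 0.481 to 0.647 and from 1.67 through 1.99 to 2.66, a difference of 2.03 ± 0.07 (limma adjusted p = 4.49e-14). Its antisense neighbour Gm45600 differed in the same direction, by 1.70 ± 0.23 (limma adjusted p = 1.35e-05). Both genes were higher in the Hapln2-type nuclei of every library.

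Anln ranged from 0.712 through 0.900 to 1.23 in Ptgds-type nuclei and from 3.14 through 3.62 to 4.02 in Hapln2-type nuclei, a difference of 1.96 ± 0.09 (limma adjusted p = 9.32e-13). Apod ranged from 2.15 through 2.33 to 3.53 and from 4.37 through 5.40 to 8.09, a difference of 1.18 ± 0.06 (limma adjusted p = 7.56e-12). For both genes the states did not overlap. Apod thus followed Hapln2 here although Ptgds was the gene nearest to it across cell classes.

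Anxa5 averaged 0.0410 ± 0.0140 and 0.0676 ± 0.0321, higher in Hapln2-type nuclei in 4 of 6 libraries. The difference of 0.51 ± 0.28 had a limma adjusted p of 0.248. It passed when each nucleus was assigned by the larger of the 2 values (0.63, limma adjusted p = 0.0180), and over its 17 alternatives the adjusted p ran from 6.55e-04 to 0.490.

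Nuclei with both defining genes lay between the states for the 5 members called. In them Il33 averaged 0.461 ± 0.203, Anln 2.23 ± 0.370, Apod 4.25 ± 0.909, Klk6 0.111 ± 0.0371 and Enpp6 1.04 ± 0.194 (SD, n = 6 each). Nuclei with neither gene had means between the states for Enpp6 (1.53 ± 0.177), Anln (1.43 ± 0.419) and Klk6 (0.0756 ± 0.0387). Apod, at 2.81 ± 1.02, was close to its Ptgds-type level of 2.50 ± 0.509.

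**Figure D4:**
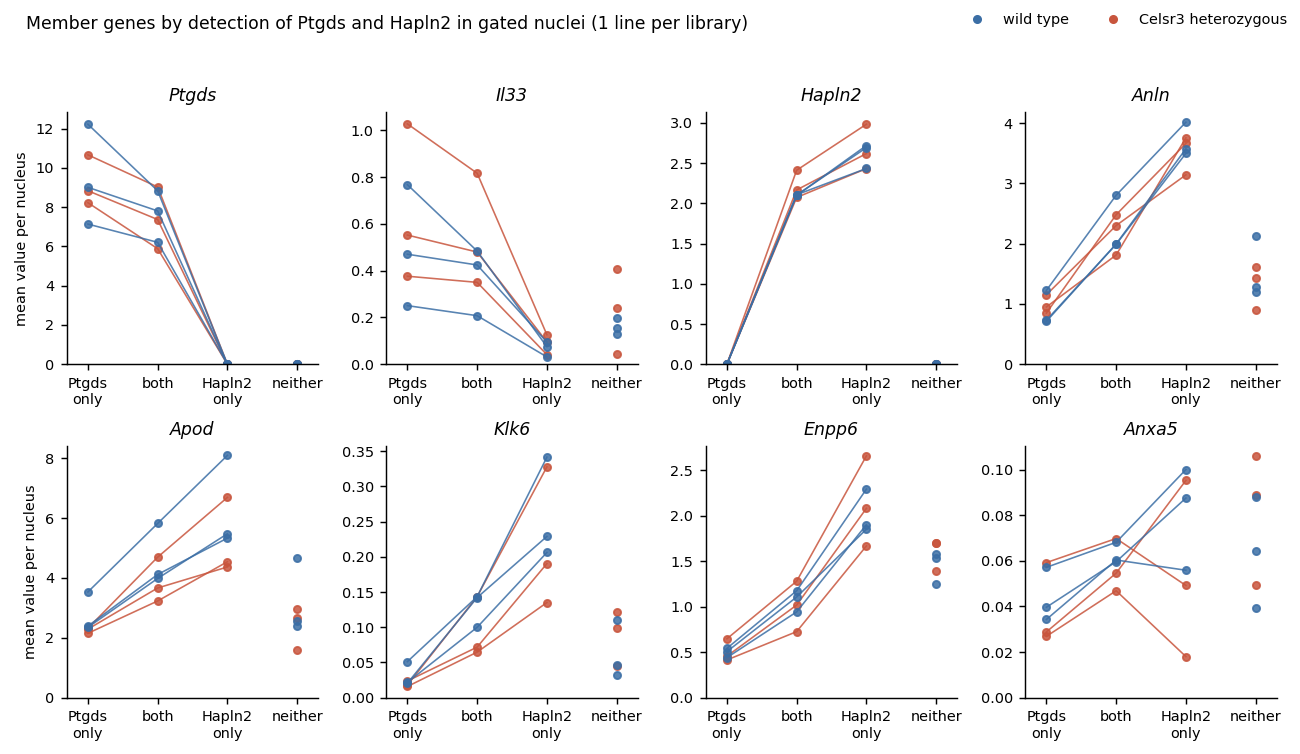
Mean value per nucleus of each member in gated nuclei with Ptgds only, both genes, Hapln2 only or neither; 1 line per library over the first 3 groups (blue wild type, red Celsr3 heterozygous). Ptgds and Hapln2 define the groups; every library line of Il33 falls and those of Anln, Apod, Klk6 and Enpp6 rise from Ptgds only to Hapln2 only.

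Markers of other cells moved with the states. Hapln2-type nuclei had lower sums than Ptgds-type nuclei in 6 of 6 libraries for markers of OPC (oligodendrocyte precursors), committed precursors, astrocytes, microglia, fibroblasts, MSN and GABAergic interneurons. The committed precursor sum was 3.84 to 5.55 against 5.36 to 7.80, with 0 of 7 markers higher in Hapln2-type nuclei, and that of astrocytes 7.19 to 8.13 against 8.18 to 10.9, with 1 of 9 higher. Fibroblast markers, whose nuclei were rich in Ptgds and Apod, summed to 0.00901 to 0.0635 against 0.0479 to 0.532, with 1 of 8 higher and Slc6a13 at 0 in Hapln2-type nuclei. Without the gated nuclei that carry another class's markers, the 5 calls among members remained. The part of free RNA or mixed nuclei in the other differences was not tested.

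The limit of 1 for Ptgds was examined with splits chosen after the data were seen. With Ptgds-type nuclei limited to a Ptgds value of 6 or more, the differences were -3.08 for Il33, 3.32 for Enpp6, 3.22 for Klk6, 2.19 for Anln and 1.10 for Apod, and all 5 were called. Here 7.89% of 9324 genes were called higher and 6.92% lower. Split by Hapln2 alone (2 or more against 0), Ptgds itself was lower by -0.65 ± 0.04 (limma adjusted p = 8.07e-12). Split by Ptgds alone (2 or less against 6 or more), Hapln2 was higher by 1.03 ± 0.05 (limma adjusted p = 8.76e-13) on the low-Ptgds side. Called shares were 6.02% higher and 17.0% lower in the first of these and 29.8% and 4.68% in the second. Anxa5 was called in both, at 0.54 (adjusted p = 0.0115) and 0.77 (adjusted p = 6.55e-04, limma). The 5 members above kept direction and call in both. Split by Hapln2 alone, Il33 differed by -0.67, Enpp6 by 1.15, Klk6 by 2.10, Anln by 1.48 and Apod by 0.91. Split by Ptgds alone, the differences were -2.02 for Il33, 2.48 for Enpp6, 2.38 for Klk6, 1.24 for Anln and 0.45 for Apod.

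Gene lists drawn from published subtypes followed the members only in part. In the list for the types rich in Ptgds, 14 of 16 names were tested, and 9 were higher in Hapln2-type nuclei and 2 lower, with a median of 0.29. Those higher included Trf (transferrin, 0.69 ± 0.04), Selenop (a selenium carrier, 1.50 ± 0.10), Nkain2 (0.30 ± 0.03) and Dock5 (0.78 ± 0.10), so 9 of 14 were higher where Ptgds was at 0. Split by Hapln2 alone, 10 of 14 were called higher and 0 lower, with a median of 0.35, and with Ptgds at 6 or more 7 were higher and 2 lower. The direction turned in the split by Ptgds alone, with 3 of 14 called higher and 6 lower, beside 29.8% and 4.68% of all genes. In the list for the types rich in Hapln2, 10 were tested, 5 were higher and 0 lower, with a median of 0.25. Spock3 (a matrix proteoglycan) rose by 0.97 ± 0.07, Gjb1 (connexin 32) by 1.05 ± 0.14, Slain1 by 0.35 ± 0.06 and Plekhh1 by 0.30 ± 0.06 (limma adjusted p = 2.95e-10, 8.16e-06, 1.01e-04 and 4.05e-04). Split by Hapln2 alone, 6 of 12 were called higher and 0 lower, with a median of 0.24, and with Ptgds at 6 or more 4 of 10 were called higher and 1 lower. By Ptgds alone 2 of 11 were called higher and 2 lower, beside 29.8% and 4.68% of all genes. The median of the list was then -0.03 beside 0.16 for all genes.

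Genes of newly formed oligodendrocytes were lower in Hapln2-type nuclei, in 8 of 8 tested, with a median of -1.45. Fyn, a kinase, changed by -1.12 ± 0.10, the transcription factor gene Tcf7l2 by -1.54 ± 0.17, Prom1 by -3.07 ± 0.34 and Cemip2 by -2.19 ± 0.26 (limma adjusted p = 1.50e-08, 5.08e-07, 6.12e-07 and 1.84e-06). Enpp6, which was highest in committed precursors, moved against this list here. Split by Hapln2 alone, 9 of 9 were lower, with a median of -1.89. With Ptgds at 6 or more 2 of 5 were lower and 0 higher, with a median of -0.17 beside -0.01 for all genes. The list turned in the split by Ptgds alone. There 8 of 9 were higher on the low-Ptgds side, beside 29.8% of all genes, and Enpp6 was higher too (2.48). The levels of the listed genes were thus higher where Hapln2 was at 0 and where Ptgds was low.

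Core myelin genes moved in both directions. Of 13 tested, 3 were higher in Hapln2-type nuclei, among them Ugt8a (0.44 ± 0.05), and Opalin (-1.66 ± 0.09), Mal (-0.74 ± 0.05) and Tspan2 (-0.68 ± 0.05) were lower, with a median of -0.11. Split by Hapln2 alone the counts were again 3 higher and 3 lower, and with Ptgds at 6 or more they were 1 higher and 5 lower. By Ptgds alone they were 1 higher and 8 lower, beside 29.8% and 4.68% of all genes. Opalin and Mal kept their direction and call with Ptgds at 6 or more (-1.79 and -1.04) and by Ptgds alone, where Opalin differed by -0.93. Of 5 tested partners of Ptgds and the lipocalins, Ptgs1, the cyclooxygenase that makes the substrate of Ptgds, differed by -1.19 ± 0.34 (limma adjusted p = 0.0167) and Bsg by -0.27 ± 0.09 (limma adjusted p = 0.0491). Ptgs1 was near the floor, at 0.0172 in Hapln2-type and 0.0443 in Ptgds-type nuclei, and was higher in Hapln2-type nuclei in 1 library. Whether it was read from oligodendrocytes was not tested. Split by Hapln2 alone, 2 of 5 partners were called lower and 1 higher, with a median of -0.31, and Ptgs1 differed by -1.34 ± 0.20 (limma adjusted p = 1.44e-05) while Bsg, at -0.16, did not pass (limma adjusted p = 0.159). With Ptgds at 6 or more 0 of 3 tested partners were called. By Ptgds alone 2 of 5 were higher and 1 lower, beside 29.8% and 4.68% of all genes. Ptgs1 was among the higher at 0.88 ± 0.17 (limma adjusted p = 4.04e-04). In the comparison of the 2 types the other 3 did not pass, among them Hpgds, another prostaglandin D synthase, at -0.39 and Il1rap, a subunit of the Il33 receptor, at 0.15.

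Over all genes tested, the 10 largest differences upward were led by Gm32122 (0.00925 in Ptgds-type and 0.201 in Hapln2-type nuclei, 3.49 ± 0.27). After Klk6 came Slc5a11, a sodium-coupled inositol transporter (0.0377 and 0.296, 2.70 ± 0.20), and Piezo2, a mechanically gated channel (0.0663 and 0.470, 2.68 ± 0.15). The others were 6030407O03Rik, Rab37, Sdk2, A330072L02Rik, 4930420G21Rik and Bace2, at 2.09 to 2.49. Limma adjusted p-values of these 10 ran from 1.10e-12 to 2.02e-06. All 10 were called in the same direction in the splits by Hapln2 alone and by Ptgds alone. These splits reuse nuclei of the comparison that picked the genes, so they are not separate support. With Ptgds at 6 or more, 6 of the 10 were tested, without Gm32122, and these 6 were called in the same direction. Gm32122 and 6030407O03Rik averaged 0.00925 and 0.0194 in Ptgds-type nuclei, below the 0.02 that the filter asked for. They were thus tested only because of their level in Hapln2-type nuclei.

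Downward, the largest were Gm5087 (0.476 in Ptgds-type and 0.0279 in Hapln2-type nuclei, -4.05 ± 0.24), Gm13187 (-3.49 ± 0.29) and Synpr, a synaptic vesicle protein gene (3.5 and 0.298, -3.45 ± 0.13; limma adjusted p = 5.06e-14). They were followed by Gm536, 9630013A20Rik, Prom1, Slc13a1 (a sulfate transporter), Kank1, Gm36988 and Adamts1, at -3.26 to -2.92. Gm536 and Adamts1 averaged 0.0029 and 0.00186 in Hapln2-type nuclei, below the filter limit of 0.02, and were tested only because of their level in Ptgds-type nuclei. The 10 downward genes were not of 1 kind. By Ptgds alone, 5 stayed lower on the low-Ptgds side and Gm13187, Gm36988, Prom1, 9630013A20Rik and Kank1 were called higher there. Gm13187 and 9630013A20Rik were also among the 10 leading genes of the committed precursor-like class. Synpr (-1.01) and Slc13a1 (-2.16) stayed on the side of high Ptgds. With Ptgds-type nuclei limited to a Ptgds value of 6 or more, 7 of the 10 were tested and 6 were called lower. There 9630013A20Rik did not pass (-0.34, limma adjusted p = 0.577).

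No member differed between the genotypes in gated nuclei, in a fit where 0.0% of 12186 genes were called (limma, Benjamini-Hochberg). The smallest adjusted p was 0.0996. Without adjustment 724 genes (5.94%) had a p under 0.05. In 10.8% of genes the groups did not overlap, 7.16% being higher in the heterozygous group. For all 8 members the groups overlapped. Gated nuclei made up 21.9% ± 4.42 of wild-type libraries and 17.3% ± 3.61 of heterozygous ones (SD over 3 libraries each). A two-sided exact permutation test gave p = 0.3, and with 3 against 3 it cannot go below 0.1.

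Apod, the lipid carrier, averaged 4.60, 3.28 and 3.21 in the wild-type libraries, in replicate order, against 2.90, 2.69 and 3.52 in the heterozygous ones. The log2 change, heterozygous minus wild type, was -0.27 ± 0.15 (limma adjusted p = 0.943), and with 1 library left out it ranged from -0.38 (without heterozygous replicate 3) to -0.10 (without wild-type replicate 1). Klk6 had 0.101, 0.0833 and 0.0681 against 0.0553, 0.0453 and 0.0898, a change of -0.39 ± 0.23 (limma adjusted p = 0.949), which ranged from -0.63 (without heterozygous replicate 3) to -0.21 (without heterozygous replicate 2). In both genes heterozygous replicate 3 lay within the wild-type range. In MSN-like nuclei Apod was also highest in wild-type replicate 1, at 0.438 against 0.207 to 0.276 in the other libraries. In Ptgds-type nuclei alone the groups did not overlap for Apod, at 3.53, 2.39 and 2.35 against 2.29, 2.15 and 2.32. The groups did not overlap there in 10.2% of 10977 genes. They overlapped for the other tested members, and for Apod too with Ptgds-type nuclei limited to a Ptgds value of 6 or more.

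Il33 had 0.608, 0.385 and 0.206 in wild-type and 0.483, 0.854 and 0.328 in heterozygous replicates, a change of 0.48 ± 0.39 (limma adjusted p = 0.995). With 1 library left out it ranged from 0.08 (without wild-type replicate 3) to 0.84 (without wild-type replicate 1), and it was not called in any of these. Ptgds had 9.88, 5.31 and 7.07 against 6.47, 7.13 and 8.79, a change of 0.04 ± 0.20 (limma adjusted p = 0.995). The wild-type libraries alone thus spanned more than the heterozygous ones did.

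Hapln2 had 0.835, 0.957 and 0.971 against 0.861, 0.811 and 1.16, a change of 0.02 ± 0.14. Anln had 1.95, 1.49 and 1.47 against 1.67, 1.46 and 1.69, a change of -0.02 ± 0.13. Enpp6 had 0.813, 1.04 and 0.834 against 0.812, 0.669 and 1.08, a change of -0.09 ± 0.17. For these 3 genes the change was smaller than its error. Anxa5 had 0.0646, 0.0453 and 0.0528 against 0.0459, 0.0338 and 0.0642, a change of -0.17 ± 0.21 (limma adjusted p = 0.995 for each of Hapln2, Anln, Enpp6 and Anxa5). In simulated data, 70.4% of changes of 1 and 96.1% of changes of 2 on the log2 scale were recovered for randomly drawn genes. These rates are not those of the members, and smaller changes were not simulated.

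**Figure D5:**
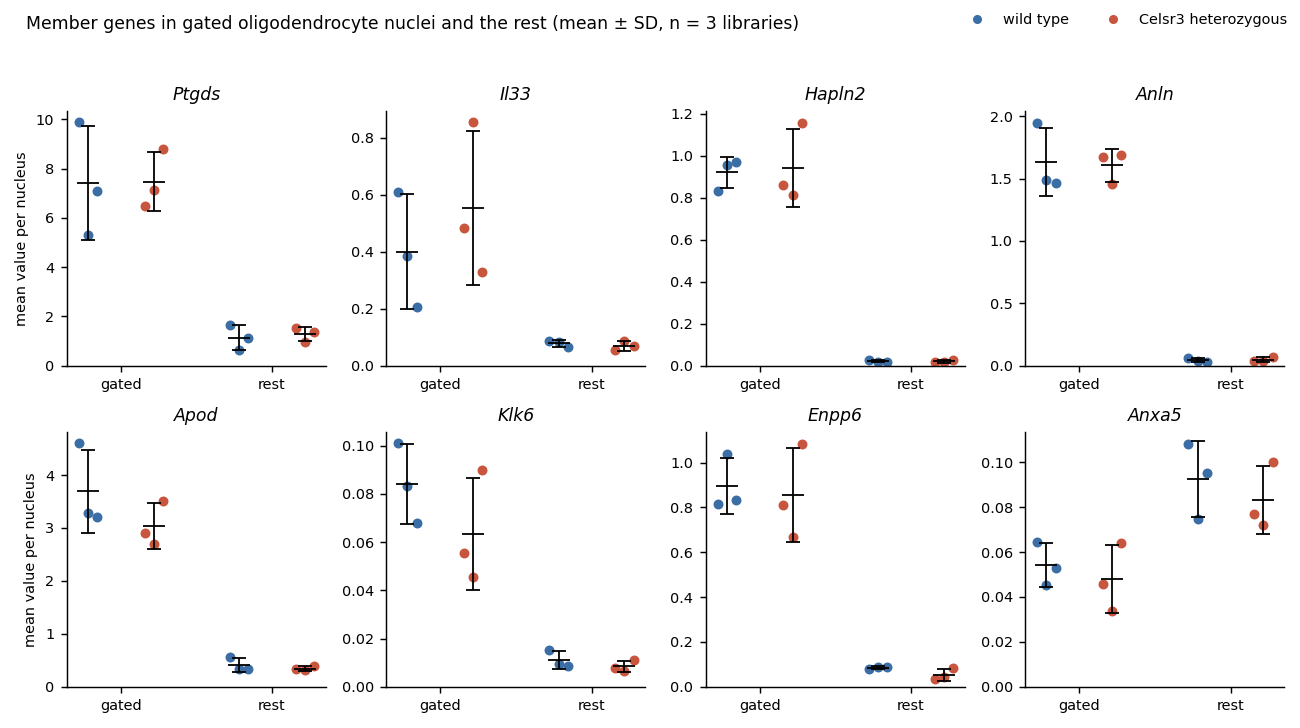
Mean value per nucleus of each member in gated nuclei and in the rest, for 3 wild-type (blue) and 3 Celsr3 heterozygous libraries (red), in replicate order from left to right; bars are mean ± SD. The genotypes overlap for all 8 members in gated nuclei, and Anxa5 is the member with higher values in the rest.

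None of the 5 gene lists had a call by genotype in gated nuclei, with medians of -0.04 to 0.05 beside 0.03 for all genes. The genes of smallest p were Gm12828 (0.827 in wild-type and 0.465 in heterozygous nuclei, -0.82 ± 0.10, limma adjusted p = 0.0996), Iqcf3 (0.0134 and 0.0465, 1.27 ± 0.16, limma adjusted p = 0.0996) and Rpl29 (0.452 and 0.180, -1.26 ± 0.18, limma adjusted p = 0.145).

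The balance of states did not differ by genotype beyond its spread. Ptgds-type nuclei made up 56.9%, 47.8% and 49.8% of gated nuclei in the wild-type libraries, by replicate, against 55.3%, 55.3% and 48.7% in the heterozygous ones (exact permutation p = 0.9, two-sided). Hapln2-type nuclei made up 5.74%, 11.7% and 10.2% against 5.90%, 7.51% and 6.64% (exact permutation p = 0.4, two-sided). In the rest, Ptgds had levels of 1.67, 0.641 and 1.12 for wild-type replicates against 1.53, 0.950 and 1.35 for heterozygous replicates. The 3 libraries with the most Ptgds there had the 3 lowest shares of Hapln2-type nuclei, but heterozygous replicate 2 had less Ptgds there than wild-type replicate 3 and also a lower share. The part of this level in the shares was not tested. Detection of Hapln2 regardless of Ptgds was 38.7%, 42.2% and 43.3% against 38.5%, 37.8% and 46.4%.

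The genotype change was finally compared between the states. Of 10977 genes 0.0% were called (limma, Benjamini-Hochberg; smallest adjusted p 0.345, and 485 genes with a p under 0.05 before adjustment). The difference of changes, Hapln2-type minus Ptgds-type, was -0.07 ± 0.32 for Il33, -0.25 ± 0.17 for Anln, -0.01 ± 0.13 for Apod, 0.13 ± 0.45 for Klk6, 0.06 ± 0.16 for Enpp6 and -0.48 ± 0.56 for Anxa5, with limma adjusted p-values of 0.988 to 0.998. The genes of smallest p were Ntng1 (-1.62 ± 0.31, limma adjusted p = 0.345), Gpc5 (1.05 ± 0.23) and Npsr1 (-2.39 ± 0.56). In simulated data this comparison recovered 19.1% of differences of 1 and 60.4% of differences of 2 on the log2 scale, for randomly drawn genes.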

How the data were processed

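Nuclei of mouse striatum (3 wild-type and 3 Celsr3 heterozygous libraries) were sequenced with 10x Genomics 3′ chemistry, per the labels' protocols. Cell Ranger, Seurat 4.1 and the build mm10 (GRCm38) are named in the submitters' processing notes. The deposited values were treated as a score: UMI values that had been depth-corrected and rounded. This was read from the values, whose totals per nucleus vary by 10.7% (4523 to 10638), so the original depth is unknown, no counting interval was computed and no count model was used. The labels call the libraries biological replicates but do not say whether each is 1 mouse, so p-values measure the spread between these samples.

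The members, lists, markers and tests were chosen with earlier results of these data known. Mean values per nucleus, library and population were transformed as log2(mean + 0.01) and fitted in limma 3.58.1 with a trended prior (R 4.3.3; Python 3.11.15), for genes with a mean of at least 0.02 and a summed value averaging at least 30 per library. The Benjamini-Hochberg adjustment ran over all genes tested, and an adjusted p under 0.05 was called. Fold changes are on that log2 scale, which understates low genes. The scripts were tested on simulated data. Classes were nuclei passing 1 marker limit only, set after the marker sums were seen (committed precursors could also pass that for OPC); classes with under 5 nuclei in a library were left out. No doublet caller was run; nuclei with another class's markers were left out as an alternative. Named genes were all members, up to 4 per list by p, the 10 largest state differences each way with the same sign in 6 libraries, the 3 of smallest p in the genotype fits and the 3 most similar genes across classes, of those reaching 0.1 in any class; 2 genes that these rules or the markers name are not reported here.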

Additional observations from a re-analysis of the deposited data

How the results depend on the processing

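Against the rest, the 7 members that were higher kept direction and call under all 12 alternatives each (other pseudocounts, no filter, size factors, a gate of 8, no nuclei with other markers, each library left out). Without the filter 19837 genes were called in place of 12414, as more genes were tested. In the state comparison, Il33, Anln, Apod, Klk6 and Enpp6 kept direction and call under all 18 alternatives, but their sizes varied. Il33 ran from -3.08 to -0.67, Anln from 1.24 to 2.19, Apod from 0.45 to 1.23, Klk6 from 1.41 to 3.23 and Enpp6 from 1.15 to 3.32. The count of genes called, 1818, became 2730 split by Hapln2 alone and 4040 split by Ptgds alone, for which the cause was not tested, and 1470 to 1898 with each library left out.

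For genotype, the count of genes called ranged from 0 to 3 with each library left out; 3 genes were called without heterozygous replicate 3 and 1 without heterozygous replicate 1. The genotype-by-state count ranged from 0 to 2 with each library left out (2 without wild-type replicate 3, 1 without heterozygous replicate 2) and was 4 by the larger of the 2 values; the cause was not tested. No member was called in any of them. Whether replicate numbers pair the samples could not be decided. Deviations of same-numbered libraries correlated at 0.23, -0.05 and 0.22, and those of other wild-type and heterozygous libraries at -0.35 to 0.25. With the replicate number as a block, 1 gene was called for genotype and 0 for genotype by state, and the shares had exact p = 1 (Ptgds-type), 0.5 (Hapln2-type) and 0.5 (gated), where 3 pairs cannot go below 0.25.

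Changes near 0 turned sign. For genotype, Hapln2 was -0.0175 with size factors and -0.0154 when matched on genes detected; with 1 library left out the ranges were -0.18 to 0.27 for Ptgds, -0.14 to 0.12 for Hapln2, -0.0869 to 0.12 for Anln, -0.27 to 0.0744 for Enpp6 and -0.36 to 0.0152 for Anxa5. For genotype by state, a threshold of 2 gave 0.25 for Il33, 0.0202 for Apod and -0.0155 for Enpp6, the larger of the 2 values gave -0.22 for Klk6 and -0.0735 for Enpp6, leaving out nuclei with other markers gave 0.0127 for Apod, and a pseudocount of 0.1 gave -0.0711 for Klk6. With 1 library left out these ranges were -0.33 to 0.17 for Il33, -0.19 to 0.11 for Apod, -0.22 to 0.33 for Klk6 and -0.0169 to 0.10 for Enpp6. The difference in the Ptgds-type share, 1.60 percentage points, ranged from -0.23 (without wild-type replicate 2) to 4.31, that in the Hapln2-type share from -4.28 to -1.28 and that in the gated share from -6.33 to -2.08.

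Pairs co-detected above 1 in all libraries numbered 13, were 14 to 15 under 3 alternatives and 8 when a value of 2 counted as detected. At that value Klk6 with Anln, Apod and Anxa5 had a ratio in 5, 3 and 2 libraries, each above 1. Hapln2 fell below 1 in 1 library with Klk6 (0.66, heterozygous replicate 1) and in 1 with Anxa5 (0.73, wild-type replicate 2). Il33 with Klk6 had a ratio in 1 library only. Pairs below 1 in all libraries numbered 9 to 10 under the alternatives. As a mean log2 ratio, Il33 with Apod moved to below 0 with nuclei carrying other markers left out (-0.22), at a gate of 8 (-0.11) and at a detection of 2 (-0.085), and Ptgds with Apod moved from -0.22 to -0.89 in the first of these. At a detection of 2, Anxa5 changed side with Il33 (0.83), Apod (-0.68) and Anln (-0.058). Depth before correction is unknown, and how far it limits each member was not tested. Of the members, Klk6 and Anxa5 were at 0 in the most gated nuclei, 9102 and 9159 of 9569.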
